A study of Caenorhabditis elegans with 4 samples.

Results

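The isolated HLH-1::GFP peaks are the binding regions of the list that stood alone on the chromosome: the midpoint of the previous peak and that of the next peak were both more than 10000 bp away. There were 960 of them among 13091 peaks, 7.33% of the list. They were chosen by distance alone, from the start and end of each peak, so their number and their places follow from that choice and are given as a description. They are set against 6629 close peaks, 50.6% of the list, which had another midpoint within 2000 bp. The remaining 5502 peaks, 42.03%, fell in neither class.

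The study mapped binding of HLH-1 in embryos of hermaphrodite Caenorhabditis elegans by ChIP-seq, the sequencing of DNA recovered with a protein by immunoprecipitation. All samples came from strain OP64, which carries the mutation unc-119(ed3) III and the transgene wgIs64, made of unc-119(+) and of hlh-1::TY1::EGFP::3xFLAG, and was raised at 20 °C and crosslinked with 2% formaldehyde. There were 2 ChIP DNA samples, precipitated with a goat polyclonal antibody against EGFP, and 2 input DNA samples of the same strain, with no group of another genotype or treatment. The strain was made by bombardment with a plasmid and carries, besides its own genes, added hlh-1 and unc-119 DNA, and binding was read from the tagged transgene product in whole embryos. Per the labels, the fusion protein appears where and when hlh-1 itself does. Strong binding in few cells and weak binding in many cannot be told apart in such samples.

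HLH-1 is the C. elegans relative of MyoD, a basic helix-loop-helix protein known for setting muscle fate, and it acts in body wall muscle. Proteins of this class bind as dimers to short DNA motifs called E-boxes, and regulatory regions of animal genomes can hold several bound sites near each other or 1 site alone. The chromosomes of C. elegans have no single centromere. The centres of the autosomes are known for housekeeping genes and rare recombination, and their arms for more repeats and frequent recombination.

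All samples were summarised by the authors in 1 combined list on the WormBase WS180 build, which gives each peak's start and end with its q-value. The q-value is the authors', and it ranks peaks within the list without measuring occupancy. A peak with a q of 1e-10 or less is called strong here. No value of a single replicate and no read count is in the list, so replicate error and depth are unknown. Peaks along a chromosome are not independent of each other and were not treated as replicates: no test was made of any difference below. Intervals of shares are exact binomial 95% intervals (Clopper-Pearson) and cover counting error only.

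Isolated peaks were narrower than close peaks, and a smaller share of them was strong. Their median width was 196.5 bp, and the middle 50% ran from 107 to 299 bp. Close peaks had a median of 266 bp and ran from 165 to 421 bp, so the median isolated peak had 0.739 times the width of the median close peak. Peaks in neither class lay between, with a median of 221 bp. The isolated median was below the close median on 6 of 6 chromosomes. All classes overlapped over most of their range, from 1 bp to 2494 bp among isolated peaks and from 1 bp to 2962 bp among close peaks.

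**Figure D1:**
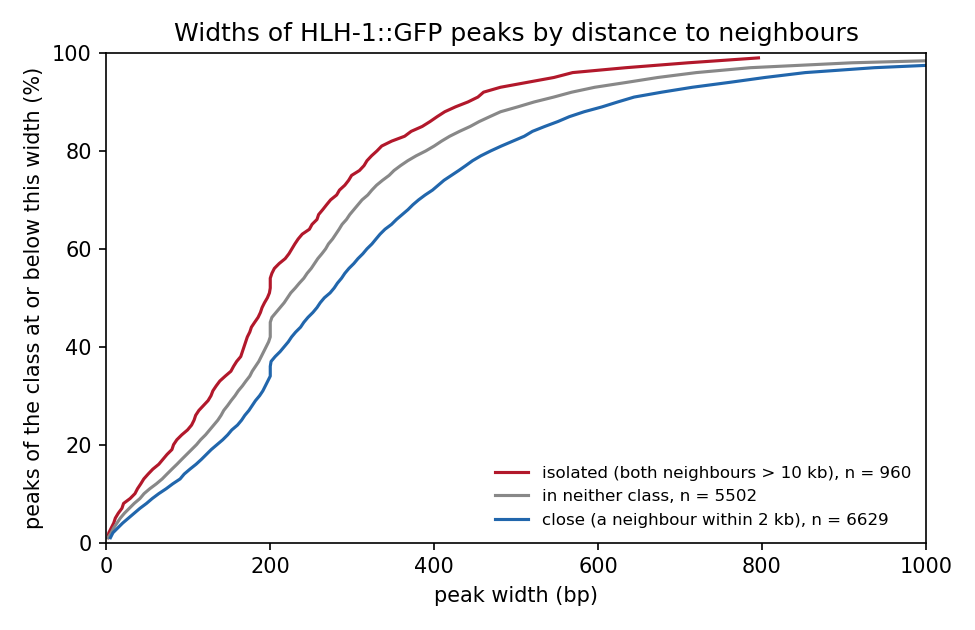
Cumulative distribution of peak width (x axis, bp, shown up to 1000 bp) as the percent of each class at or below that width (y axis), from the percentiles 1 to 99 of isolated, close and remaining peaks. The isolated curve lies above and to the left of the others, with a median of 196.5 bp against 221 bp and 266 bp, and every curve steps up at 200 bp.

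The shift was present at both ends of the width range. Of the isolated peaks, 133 (13.9%, interval 11.7 to 16.2%) were narrower than 50 bp, against 9.48% of the whole list and 8.07% of close peaks. At the wide end, 63 isolated peaks (6.56%, interval 5.08 to 8.32%) measured 500 bp or more, where the whole list had 14.2% and close peaks had 17.8%. Only 5 isolated peaks were 1000 bp or wider, 0.521% against 1.89% of the list and 2.44% of close peaks. The summed width of isolated peaks was 218 kb, which is 5.62% of the bases covered by all peaks, while the class holds 7.33% of the peaks.

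Few isolated peaks were strong. A q of 1e-10 or less was reached by 122 of them, 12.7% (interval 10.7 to 14.98%), beside 19.2% of the whole list. Among close peaks 22.5% (interval 21.5 to 23.5%) were strong, 1.77 times the isolated share. The median q was 0.000934 in isolated peaks, 0.000395 in the remaining peaks and 0.000108 in close peaks. At the weak end, 470 isolated peaks (48.96%) had a q above 0.001, against 38.6% of the list and 34.4% of close peaks. The strong share was lower in isolated than in close peaks on 6 of 6 chromosomes.

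The list ordered by q shows the same gradient. In the strongest of 10 equal sets, 61 of 1309 peaks were isolated (4.66%), and in the weakest 123 of 1310 were (9.39%). Isolated peaks, 7.33% of the list, made up 4 of the 100 strongest peaks. None of the 10 strongest was isolated, a set too small to show a difference from that share. Close peaks went from 61.1% of the strongest set to 42.3% of the weakest.

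Below 500 bp, isolated and close peaks of like width had like shares of strong peaks. No peak under 200 bp was strong in either class, and these made up 495 of the 960 isolated peaks (51.6%) but 33.7% of the close ones. Among peaks of 200 to under 300 bp, 8.89% of isolated peaks (20 of 225, interval 5.51 to 13.4%) and 7.06% of close peaks (interval 5.82 to 8.47%) were strong. For 300 to under 500 bp these shares were 40.1% (71 of 177, interval 32.8 to 47.7%) and 38.07% (interval 35.7 to 40.4%). Both differences are smaller than the width of the isolated intervals and run opposite to the difference over all widths.

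Wider peaks differed more in value. From 500 to under 1000 bp, 46.6% of isolated peaks were strong (27 of 58, interval 33.3 to 60.1%), against 58.7% of close peaks (interval 55.6 to 61.8%). Of the 5 isolated peaks of 1000 bp or more, 4 were strong. When the close peaks were weighted to the widths of the isolated peaks over 7 width classes, 12.7% of them were strong, equal at this rounding to the isolated share. Widths under 200 bp, without strong peaks, carried 51.6% of the weight, and wider classes differed in both directions. The weighted close shares were 11.9%, 10.7% and 14.9% on I, II and III, below the isolated 14.3%, 14.8% and 18.7%. On IV, V and X they were above the isolated shares. Width and q come from the same peak call, so the comparisons of width and of strength are not independent of each other. Width and −log10 q had a Spearman's rho of 0.60 across the 960 isolated peaks and of 0.71 across the 6629 close peaks, which share their libraries and are not replicates.

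**Figure D2:**
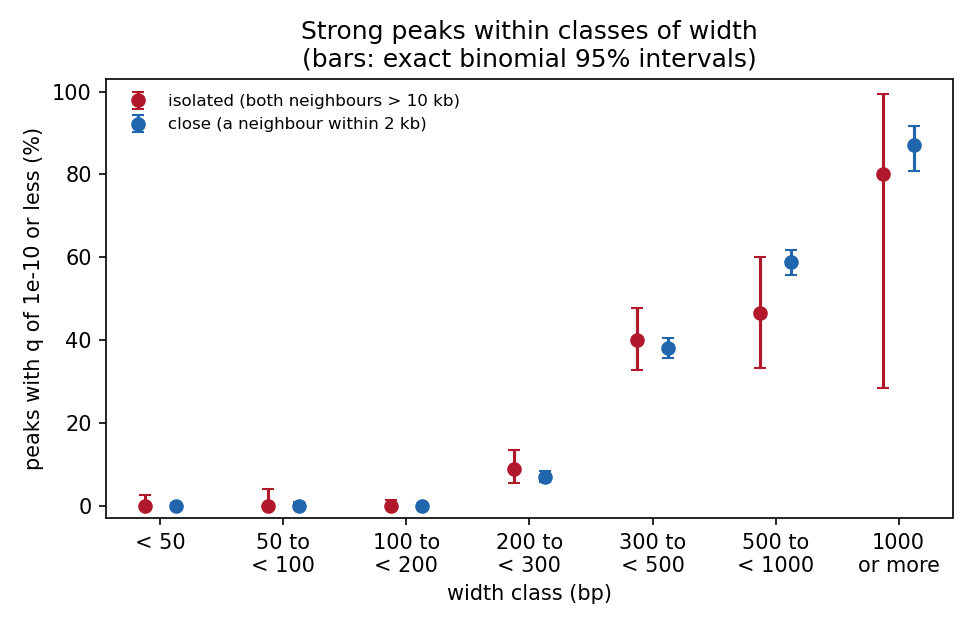
Percent of peaks with a q of 1e-10 or less (y axis) in 7 classes of width in bp (x axis), for isolated and close peaks, with exact binomial 95% intervals as bars. The points of both classes lie together below 500 bp, at 40.1% and 38.07% from 300 to under 500 bp, and the isolated interval is wide in the class of 1000 bp or more, which holds 5 isolated peaks.

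Width and strength did not fall steadily with distance from the nearer neighbour. Peaks with a midpoint within 500 bp were the narrowest, with a median of 136 bp, and 5.29% of these 435 peaks were strong. Peaks of the list were at least 200 bp apart, so midpoints this near leave little room for wide peaks. To a lesser degree, spacing also bounds the widths of all close peaks. No peak under 200 bp was strong. Whether spacing accounts for the low values within 500 bp was not tested. The highest values were at 1000 to 2000 bp, with a median of 290 bp and 26.3% strong. From 5000 to 10000 bp the median was 200 bp and 13.96% were strong, close to isolated peaks with a nearer neighbour at up to 20000 bp (799 peaks, median 198 bp, 13.4% strong). The 161 isolated peaks more than 20000 bp from both neighbours had a median of 189 bp, and 15 of them were strong (9.32%, interval 5.31 to 14.9%). The share from 5000 to 10000 bp has an interval of 12.4 to 15.6%, and that up to 20000 bp has one of 11.1 to 15.95%.

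**Figure D3:**
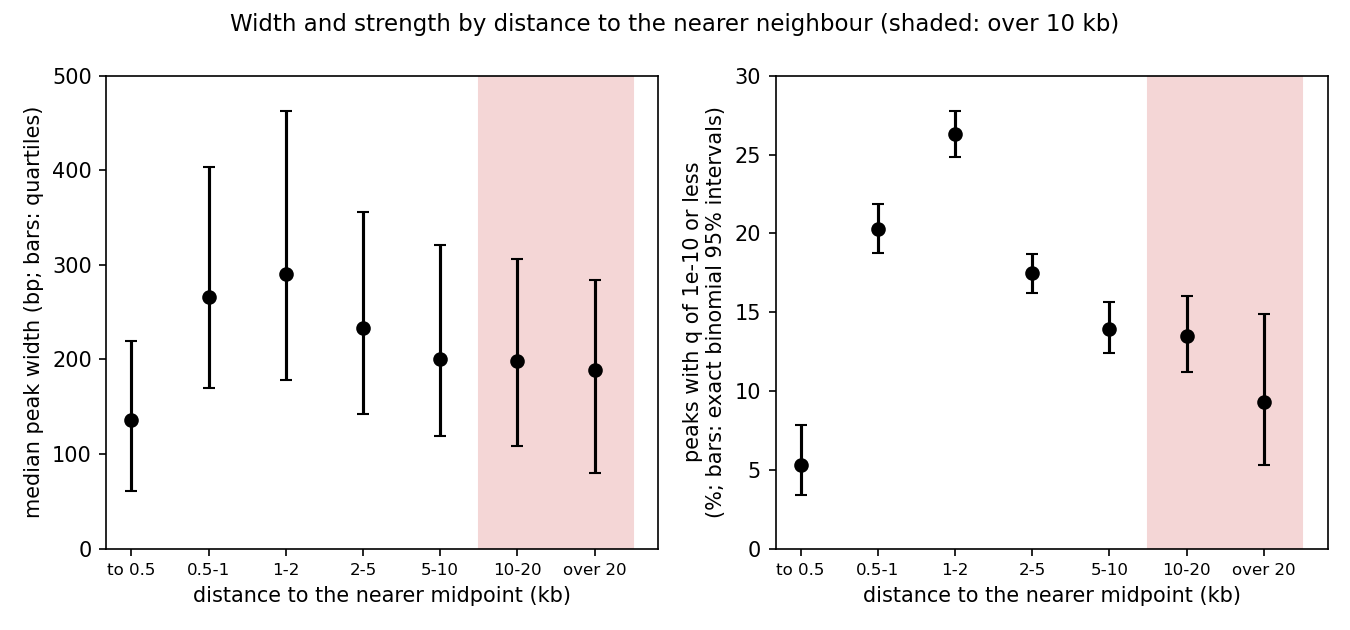
Left, median peak width in bp with quartiles as bars; right, percent of peaks with a q of 1e-10 or less with exact binomial 95% intervals; both by distance to the nearer midpoint in kb, over all peaks, with distances over 10 kb shaded (isolated peaks and 3 first or last peaks of a chromosome). Both measures are highest at 1 to 2 kb (290 bp and 26.3%), lowest within 0.5 kb (136 bp and 5.29%), and nearly level from 5 to 20 kb. Midpoints within 0.5 kb leave little room for wide peaks.

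Isolated peaks were spread over all 6 chromosomes, with most on V and fewest on I. Chromosome V held 219, IV 170, X 169, II 149, III 134 and I 119. As a share of the peaks on each chromosome this was 8.73% on V, 8.68% on IV, 7.61% on II, 7.06% on III, 6.86% on X and 5.17% on I. Per length, V had 10.5 isolated peaks per Mb and I had 7.93, with the other 4 chromosomes between 9.54 and 9.76. Close peaks were densest on I, at 83.2 per Mb, and sparsest on V and IV, at 58.2 and 54.99 per Mb. Every one of the 96 whole blocks of 1 Mb held isolated peaks, from 4 to 19 with a median of 9.

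On the autosomes the isolated peaks lay more in the arms. Each chromosome was cut into 3 equal parts, with the outer ones as arms and the middle one as centre. The arms held 553 of the 791 autosomal isolated peaks, 69.9% (interval 66.6 to 73.1%), and 60.7% of the close ones (interval 59.3 to 61.97%). The share was above that of close peaks on 5 of 5 autosomes, from 66.4% against 64.3% on I to 73.8% against 57.2% on II. Arms had fewer peaks of any class, 122 per Mb against 143 in centres, but more isolated ones, 10.06 against 8.66 per Mb. Distance between midpoints chose the isolated peaks, so their number depends on how peaks are spaced, and the arm share is given as a description. Single parts varied in density and in isolated peaks. Per Mb, the left arm of II had 106 peaks and 9.63 isolated ones, and its right arm 127 and 11.98. The centre of II had 152 and 7.66. Whether the arm share differs from what density alone would give was not tested.

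Single arms differed. The right arm of IV had the highest share, 64 of 544 peaks isolated (11.8%, interval 9.18 to 14.8%), and the lowest density of peaks, 93.4 per Mb. The right arm of V followed with 10.2%, then the left arm of V with 9.42%, the right arm of II with 9.40% and its left arm with 9.11%. On chromosome I the 3 parts were nearly equal, at 5.35%, 4.93% and 5.25%. The centre of IV, at 7.62%, was above its left arm at 7.36%, which is within counting error.

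X had 9.54 isolated peaks per Mb, between the 8.66 of autosomal centres and the 10.06 of arms, and 6.86% of its peaks were isolated, against 6.04% in centres and 8.27% in arms. It held 17.6% of isolated peaks (169 of 960, interval 15.2 to 20.2%) and 18.6% of close peaks (interval 17.7 to 19.6%). The difference was -1.03 percentage points, with an interval for counting error of -3.50 to 1.67. When distances were measured among peaks stronger than the median q only, these shares were 16.9% and 21.3%, a difference of -4.47 points with an interval for counting error of -7.04 to -1.81. Along X the isolated share was level, at 6.56% in the left part, 6.98% in the middle and 7.01% in the right part. The median width of isolated peaks on X, 202 bp, was like that of autosomal centres, 202.5 bp, and above that of arms, 183 bp. Close peaks were widest on X, with a median of 299 bp against 270 bp in centres and 248.5 bp in arms. The gap between the medians of isolated and close peaks was therefore 97 bp on X in value, and no test of its difference from the autosomes was made.

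**Figure D4:**
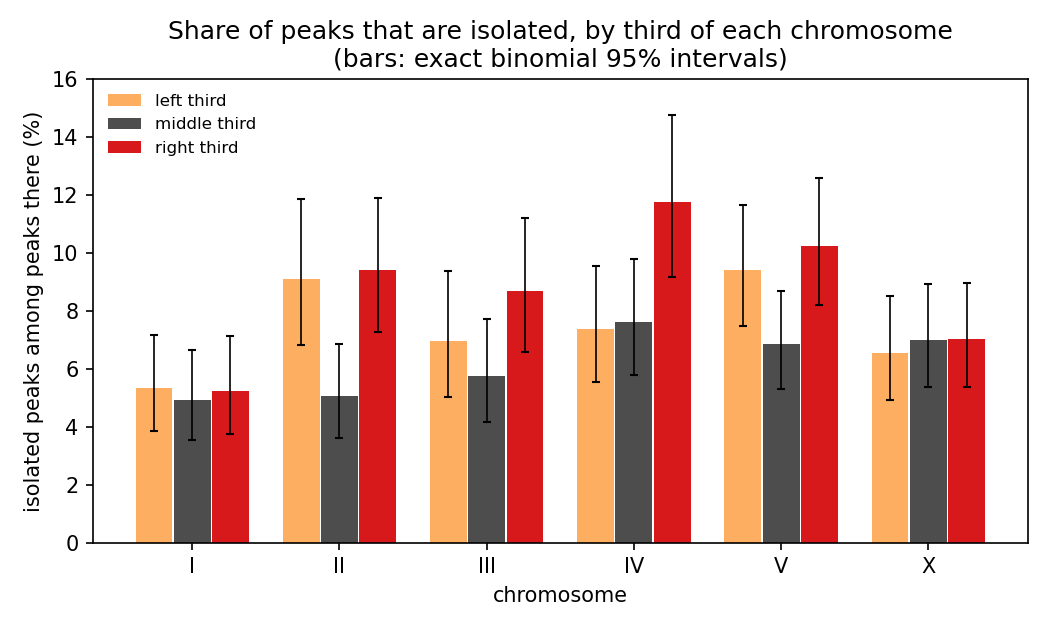
Percent of peaks that are isolated (y axis, bars from 0) in the left, middle and right part of each chromosome (x axis), with exact binomial 95% intervals as lines. The right part of IV is highest at 11.8%, chromosome I is lowest in all 3 parts at 4.93 to 5.35%, and X is level at 6.56 to 7.01%.

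Strong isolated peaks were fewest, as a share, in autosomal arms. The strong share of isolated peaks was 10.3% in autosomal arms (57 of 553), 17.2% in centres (41 of 238) and 14.2% on X (24 of 169), with intervals of 7.90 to 13.1%, 12.7 to 22.6% and 9.32 to 20.4%. Close peaks stood at 19.5%, 24.2% and 27.4% in the same places. Weighted to the isolated widths, the close shares became 9.82% in arms, 15.8% in centres and 17.06% on X, each inside the isolated interval. Among chromosomes, III had the highest strong share of isolated peaks, 18.7% (25 of 134), and V the lowest, 5.94% (13 of 219). Isolated peaks on V were also the narrowest, with a median of 167 bp and 18.3% of them under 50 bp. Close peaks on V were strong in 18.2%, and in 7.84% when weighted to the isolated widths.

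The strongest isolated peak lay on chromosome IV in the right arm, chrIV:14032407-14034900. It was 2494 bp wide, also the widest isolated peak, had a q of 2.61e-123 and ranked 14 in the list. Its neighbours were 19226 bp and 13343 bp away, and both were themselves isolated and weak, with q-values of 0.00743 and 0.00183. The second was on chromosome I, chrI:12164548-12165002, 455 bp wide with a q of 1.05e-84, and had no peak midpoint for 58326 bp on its left side. The third was again on IV, chrIV:13826191-13826741, 551 bp wide with a q of 4.86e-84. With its nearer neighbour at 25337 bp it was the most remote of the 10 strongest.

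The remaining 7 of the 10 strongest isolated peaks lay on II, IV, I and X. On II, chrII:6290297-6290691 was 395 bp wide with a q of 1.93e-67. On IV, chrIV:10957493-10958535 was 1043 bp wide with a q of 4.59e-58, and its nearer neighbour was only 10200 bp away. The other chromosome I members were chrI:11294044-11294473, with a q of 1.92e-45, and chrI:1651283-1651679, with a q of 2.96e-40. X held chrX:5429210-5429863, chrX:7264696-7265384 and chrX:16056291-16056746, with q-values of 2.38e-41, 4.19e-41 and 5.56e-41. Of the 10, 8 measured 395 to 689 bp, which is wide beside the isolated median of 196.5 bp and upper quartile of 299 bp. Positions of hlh-1 and unc-119 on WS180 were not used here. No peak was therefore compared with the DNA that the transgene adds, where extra copies can give extra reads.

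Among the 122 strong isolated peaks the median width was 398.5 bp, against 496.5 bp in the 1492 strong close peaks. The narrowest strong isolated peak had 244 bp. Only 20 isolated peaks had a q of 1e-30 or less, and their median width of 455.5 bp stood against 652 bp in 333 close peaks of that strength. Of the 98 strong isolated peaks on autosomes, 58.2% lay in arms, while 74.6% of the 393 autosomal isolated peaks with a q above 0.001 did. Close peaks had the same order, with 55.4% of strong and 62.9% of such weak autosomal peaks in arms, and so had the remaining peaks, with 60.2% and 68.3%.

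None of the 5 most remote isolated peaks was strong, a set too small to show a difference from the 12.7% of all isolated peaks. Most of the 5 were narrower than the isolated median of 196.5 bp. Their q-values ran from 0.000412 to 0.00863, around the isolated median of 0.000934. The farthest from any other was on X near its left end, chrX:113876-114201, 326 bp wide with a q of 0.00125, and 67548 bp and 81527 bp from its neighbours. Then came chrV:17229561-17229602 (42 bp, q of 0.000934), chrV:3906163-3906277 (115 bp, q of 0.000412), chrII:1601787-1601791 (5 bp, q of 0.000935) and chrIV:15187583-15187626 (44 bp, q of 0.00863). Their nearer neighbours were from 60813 to 66416 bp away. All 4 lay in autosomal arms, which held 69.9% of the autosomal isolated peaks.

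Wide isolated peaks were found in several places. After the peak on IV of 2494 bp came chrV:9342987-9344623, 1637 bp wide with a q of 2.94e-31, and chrIV:8333306-8334833, 1528 bp wide with a q of 6.63e-34, both in centres. On X, chrX:8749993-8751087 was 1095 bp wide but had a q of only 2.83e-09. Chromosome IV held 19 of the 63 isolated peaks of 500 bp or more and X held 18. These were 11.2% of the isolated peaks on IV and 10.7% of those on X. Close peaks also reached this width most often there, 21.5% of them on IV and 20.6% on X. At the other extreme 6 isolated peaks (0.625%, against 0.390% of the whole list) were 1 bp long, with q-values from 0.00101 to 0.00846. The first 3 by position were at base 2500487 and base 4157647 of I and at base 11334112 of II.

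Isolation varied in degree among the members. The median distance to the nearer neighbour was 13694 bp and that to the farther one 24320 bp, and in the median peak the farther was 1.52 times as far as the nearer. The nearer neighbour was the previous peak in 496 cases and the next peak in 464. The land between midpoints, divided halfway, gave isolated peaks 21.3% of the ground for 7.33% of the peaks, while close peaks had 28.4% of the ground for 50.6% of the peaks. Within 100 kb on either side, isolated peaks had a median of 22 other peaks (quartiles 17 and 28) and close peaks 29 (quartiles 24 and 35), so the surroundings overlapped widely. The distances, the ground and these counts all rest on the midpoints that chose the classes, and are a description only.

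The members just inside the limit were chrIV:5103484-5103600, with its nearer neighbour at 10001 bp, and a pair on V, chrV:14028288-14028682 and chrV:14038471-14038512, that lay 10006 bp from each other. Just outside were chrV:9385187-9385469 and chrV:9395101-9395551, 9998 bp apart, and chrX:5631553-5631562, at 9989 bp. Their widths ran from 42 to 395 bp inside and from 10 to 451 bp outside. The 12 first and last peaks of the chromosomes have 1 neighbour each and could not be members, and 3 of them lay more than 10000 bp from it.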

How the data were processed

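ChIP DNA and input DNA (2 samples each, replicates 1 and 2) stand behind 1 peak list named as combined. Whether reads were pooled or peaks merged afterwards is not stated. Per the file headers, positions are on WormBase WS180, and the deposited source column names PeakSeq as the authors' peak caller. For its version, the aligner, read filters and scaling: not given in the sources used here. The deposited values are a q-value for each peak (largest 0.00994) and its start and end. The list had 0 duplicates and 0 overlaps, and peaks were at least 200 bp apart.

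Midpoints, distances, medians and shares were computed in Python 3.11.15 (pandas 2.3.3, numpy 2.4.6, scipy 1.17.1), and figures with matplotlib 3.10.9. The code was checked on simulated lists. The end of the last peak stood for the length of a chromosome, which made 100.2 Mb together. Isolated peaks, comparison classes and limits were chosen with earlier results of these data known. Peaks named are the 10 strongest, 5 most remote, 5 widest and 3 narrowest isolated peaks, 3 on each side of the limit, and the longest runs. A motif search and gene names were planned but not run, because no WS180 sequence or annotation was at hand. Alternatives changed distances, limits, widths, places and chromosomes.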

Additional observations from a re-analysis of the deposited data

How the results depend on the processing

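Apart from the number of isolated peaks, values here are isolated minus close. No alternative has a test: each difference was set against the binomial interval of the reported one, and each number of peaks against 1.5 times the reported number. The difference in median width of -69.5 bp kept its direction in 16 of 16 alternatives. It was -45.5 bp and -57.5 bp with close peaks defined within 1000 bp and 5000 bp, and -97 bp on X alone. The arm share, higher by 9.25 percentage points, kept its direction in 13 of 13 alternatives, and was higher by 17.8 points at an isolation distance of 20000 bp and by 14.9 with each arm cut to 0.25 of the chromosome. Leaving out X was not run for this autosomal share, which it cannot change. The X share differed by -1.03 points, with an interval of -3.50 to 1.67, and by -4.97 at 20000 bp. Among peaks stronger than the median q it differed by -4.47, with an interval of -7.04 to -1.81. Intervals of differences between shares were built from the Wilson intervals of both shares (Newcombe). They cover counting error only and are not a test. The strong share differed by -9.80 points. It was -13.2 at 20000 bp, -5.45 with close peaks within 1000 bp, -15.01 and -5.72 for limits of 1e-05 and 1e-20 on q, -6.996 in autosomal centres and -13.2 on X. By width it was 0 in the 3 classes under 200 bp, turned to 1.83 from 200 to under 300 bp and to 2.05 from 300 to under 500 bp, and was -12.2 from 500 to under 1000 bp and -7.04 from 1000 bp. Weighting close peaks to the isolated widths, chosen after seeing the data, gave 0.033. The cause of the changes was not tested. The number of isolated peaks went from 960 to 2758 at 5000 bp and 161 at 20000 bp, as wider limits leave fewer. No paired analysis was possible because the file is named as combined and holds no value of a single replicate, and leaving out a replicate was not possible for the same reason. Unknown depth and the limit of the list on q bound what weak peaks can show.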

Other observations

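Isolated peaks also occurred next to each other. Of the 960, 453 had no isolated neighbour, 416 had 1 and 91 had isolated peaks on both sides. By the rule, a neighbour of an isolated peak already lies more than 10000 bp from 1 of its own neighbours. These counts and the series below therefore follow in part from that choice and are a description only. The longest series held 5 isolated peaks in a row, and there were 5 such series. They lay on II from 11841654 to 11902594, on III from 12178003 to 12273719, on X from 11693062 to 11787544, and on V 2 times, first from 1060348 to 1117934 and again from 17064798 to 17300095. The series on III had 3 strong peaks, the best with a q of 1.11e-24 and a width of 611 bp. The second series on V covered 235 kb and had no strong peak, with q-values from 1.03e-05 to 0.00468. It lay in the block from 17 to 18 Mb of V, which held 19 isolated peaks among 67, the highest number of any 1-Mb block. That block was named after its value was seen.

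A width of exactly 200 bp was common, and this too was noticed in the data. It was found in 28 isolated peaks (2.92%), 217 of the remaining peaks (3.94%) and 211 close peaks (3.18%), while no other width was shared by more than 9 isolated peaks. Of the 28, 11 lay on V, which held 22.8% of all isolated peaks. The number of such peaks on V in the whole list is not given here. All 28 differed in q, with a median of 0.00184. The same number of bases is the smallest gap between neighbouring peaks of the list.

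The longest distance from an isolated peak to a neighbour was on V, where chrV:2319237-2319340, 104 bp wide with a q of 0.00157, lay 251283 bp from the next midpoint. On IV, 2 isolated peaks faced each other across 130057 bp, chrIV:16198880-16199156, 277 bp wide, and chrIV:16328947-16329203, 257 bp wide.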
